A study of Mus musculus with 2 samples.

Results

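The 8 mucin genes Muc1, Muc2, Muc4, Muc5ac, Muc5b, Muc6, Muc13 and Muc20 were examined in sorted cells of the mouse pylorus, the part of the stomach that opens into the intestine. Members were the probes whose gene name in the array files is one of these symbols, which gave 17 probes of 8 genes among 41174 probes with 27827 gene names. The donor mice carried the Lgr5-EGFP-ires-CreERT2 knock-in allele, which expresses green fluorescent protein (GFP) and a tamoxifen-inducible Cre from the locus of Lgr5, a Wnt pathway receptor that marks stem cells in several epithelia. Cells of 20 mice were pooled and separated on a cell sorter by their GFP brightness into GFPhigh and GFPlow, so both populations carry the same allele and come from the same animals. No age, sex or treatment was given. The RNA of both was set against each other on 2 Agilent two-colour arrays of 60-base probes. Array 1 had GFPhigh in Cy3 and array 2 had it in Cy5.

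Mucins are large glycoproteins whose central stretches of serine, threonine and proline carry dense O-linked sugars. Gel-forming mucins are secreted and build the mucus layer, and in the stomach Muc5ac is known as the product of surface (pit) mucous cells and Muc6 as that of mucous cells deeper in the glands. Muc2 is the main secreted mucin of intestinal goblet cells, and Muc5b is best known from airway and salivary glands. Muc1, Muc4, Muc13 and Muc20 are anchored in the cell membrane, where their extracellular parts form a surface coat and their tails take part in signalling.

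The probes that the results on mucins turn on are given first, because each mucin ratio is the ratio of 1 or 2 such sequences. They were the Muc6 probe, both Muc5ac probes, which differ in brightness, and the Muc1 probe used for the gene, and they are printed in lower case from 5′ to 3′ as in the array files.
Muc6: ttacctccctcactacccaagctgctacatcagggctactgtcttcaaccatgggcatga
Muc5ac, brighter probe: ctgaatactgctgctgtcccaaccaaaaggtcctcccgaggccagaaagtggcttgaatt
Muc5ac, dimmer probe: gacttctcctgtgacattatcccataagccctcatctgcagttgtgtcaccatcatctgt
Muc1: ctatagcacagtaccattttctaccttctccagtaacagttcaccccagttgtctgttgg

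By the file headers, coordinates are those of mm9. The Muc6 probe lies on the minus strand at chr7:148822365-148822424. The brighter Muc5ac probe lies on the plus strand at chr7:149004793-149004852, and the dimmer one 8219 bases before it at chr7:148996574-148996633. The Muc1 probe lies at chr3:89034965-89035024 on the plus strand. Which exons these probes match was not examined, since no mm9 gene models were used here. Between probes of different mucin genes the longest identical run, on either strand, was 10 bases, so no member probe repeats another member's sequence.

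The gel-forming mucins share a location. The probes of Muc6, Muc2, Muc5ac and Muc5b span 236.4 kb of chromosome 7, and in the RefSeq gene table of GRCm38.p6 these 4 genes follow each other directly. The membrane mucins Muc4, Muc20 and Muc13 have their probes on chromosome 16 and Muc1 on chromosome 3. The Muc6 probe and the brighter Muc5ac probe, 182.4 kb apart, had ratios of opposite sign in the comparison below.

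Each ratio below is the log2 of GFPhigh over GFPlow after normalization, averaged over the arrays with its SD (n = 2 arrays). Positive ratios mean more signal in GFPhigh. The arrays are a dye swap of the same pair of RNA samples. They are repeat measurements of 1 sample per population, so the SD holds technical error only and no test between populations was possible. A gene was compared where the population with the stronger signal stood well above background on each array, and it counted as higher in a population where the ratio was at least 2-fold, or 1 on the log2 scale, in that direction on each array. In pooled RNA, fewer cells of a type and less RNA per cell cannot be told apart.

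Of the 8 mucin genes 4 were compared: the gel-forming Muc5ac and Muc6 and the membrane mucins Muc1 and Muc20. Muc5ac was higher in GFPlow, 0 of the 4 were higher in GFPhigh by the 2-fold rule, and Muc6 missed it on 1 array. Across all 7827 genes compared, 212 (2.71%) were higher in GFPlow and 140 (1.79%) in GFPhigh. The number higher in GFPhigh was 10 with each array centred on its median and 21 with centring on spike-in RNA, where 1656 were higher in GFPlow. From the GFPhigh end to the GFPlow end the order was Muc6, Muc1, Muc20 and Muc5ac. Muc6 lay 0.68 ± 0.39 above Muc1 and Muc1 lay 0.12 ± 0.01 above Muc20. Muc20 lay 2.60 ± 0.49 above Muc5ac, the largest step in this order. Over all probes compared, the difference between the arrays had an SD of 0.56. The step from Muc6 to Muc1 was not far larger than that, and the step from Muc1 to Muc20 was smaller. The SD of 0.56 holds the spread of single probes between arrays and does not measure the error of a step between 2 genes. With array-median centring the order of Muc1 (-0.099) and Muc20 (-0.017) was reversed.

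**Figure D1:**
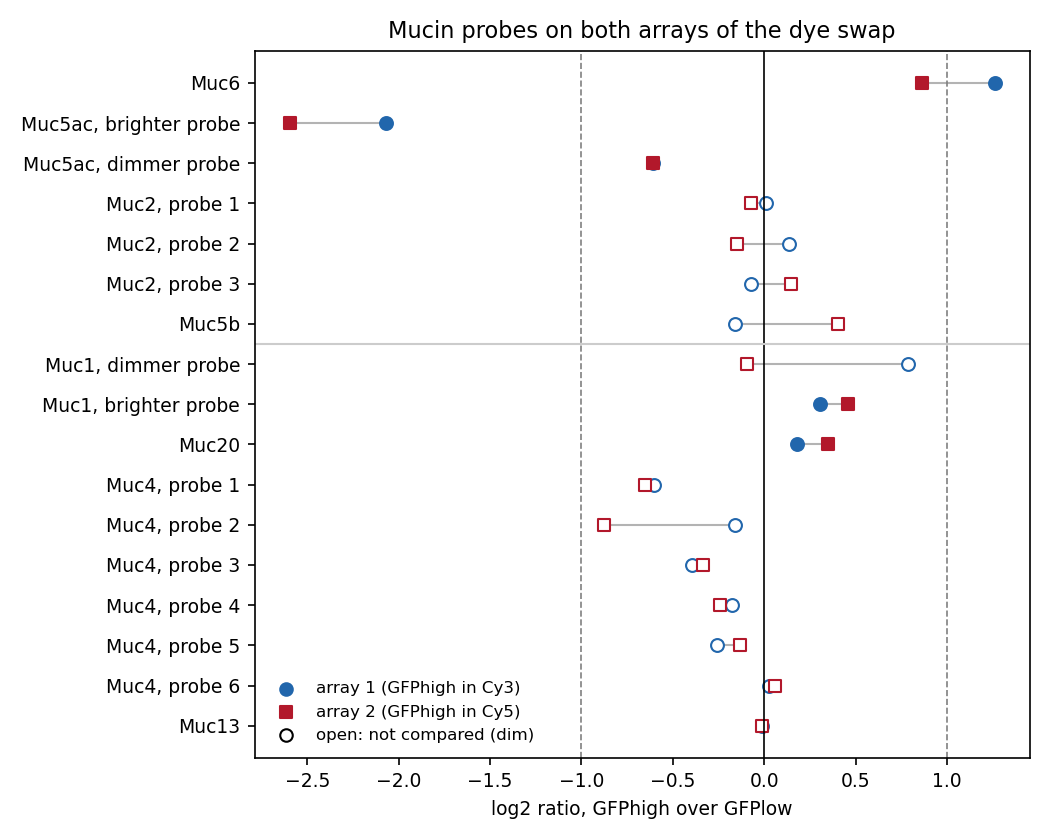
Log2 ratio of GFPhigh over GFPlow for each of the 17 mucin probes (rows) on array 1 (circles) and array 2 (squares), gel-forming mucins above the grey line and membrane mucins below it. Filled symbols are the 5 probes that were compared, open symbols probes too dim to compare, and dashed lines mark 2-fold; the brighter Muc5ac probe lies beyond the line on both arrays (-2.07 and -2.60) and Muc6 on array 1 alone (1.26 and 0.86).

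Muc5ac, the gel-forming mucin of surface mucous cells, had the largest difference of the family. At its brighter probe the net signal, spot minus local background, was 368 in GFPhigh and 1249.6 in GFPlow on array 1. On array 2 it was 149 in GFPhigh and 3944 in GFPlow. GFPlow was thus the brighter population under either dye, already before normalization. The log2 ratios of -2.07 (array 1) and -2.60 (array 2) averaged -2.33 ± 0.37, which is 5.04-fold higher in GFPlow. This placed Muc5ac at rank 22 of 7827 genes counted from the GFPlow end.

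The dimmer Muc5ac probe pointed the same way with a smaller value. Its net signals were 63.2 in GFPhigh and 89.1 in GFPlow on array 1, and 45.9 and 157 on array 2. On neither array did GFPhigh stand well above background, so a bound is given beside the ratio of -0.61 on each array. The bound sets the GFPlow level against the lowest GFPhigh level called above background. Where the GFPhigh level of the probe itself was higher than that, it was used instead. By this bound the probe was at least 1.35-fold higher in GFPlow. In the processed signals of the scanner software, which subtract the background without the offset of 50 used here, this probe was at -2.40 and -1.54 and the brighter one at -2.54 and -2.79. The size at the dimmer probe thus differed between these 2 ways of processing, which differ in both background and dye correction, while its direction did not. When the ratios of both Muc5ac probes were averaged, the gene was at -1.47 and still passed 2-fold on both arrays.

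Muc6, the gel-forming mucin of gland mucous cells, had a ratio of opposite sign to Muc5ac. It was measured by 1 probe, with both dyes well above background on each array. The net signal was 338 in GFPhigh and 89.7 in GFPlow on array 1, and 145 in GFPhigh and 189 in GFPlow on array 2. Before normalization GFPhigh was the brighter population on array 1 and the dimmer one on array 2. After correction for the dye effect the ratio was 1.26 and 0.86, a mean of 1.06 ± 0.28, or 2.09-fold, at rank 220 of 7827 from the GFPhigh end. Muc6 passed 2-fold on array 1 and fell short of it on array 2.

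The direction of Muc6 on array 2 rested on the dye correction. With each array centred on its median in place of the intensity-dependent loess curve, Muc6 was at 1.47 on array 1 and -0.03 on array 2. With the processed signals it was at 1.96 and 1.90 and counted as higher in GFPhigh. Over all alternatives the mean of Muc6 stayed above 0, from 0.27 with centring on spike-in RNA to 1.93 with the deposited value table.

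**Figure D2:**
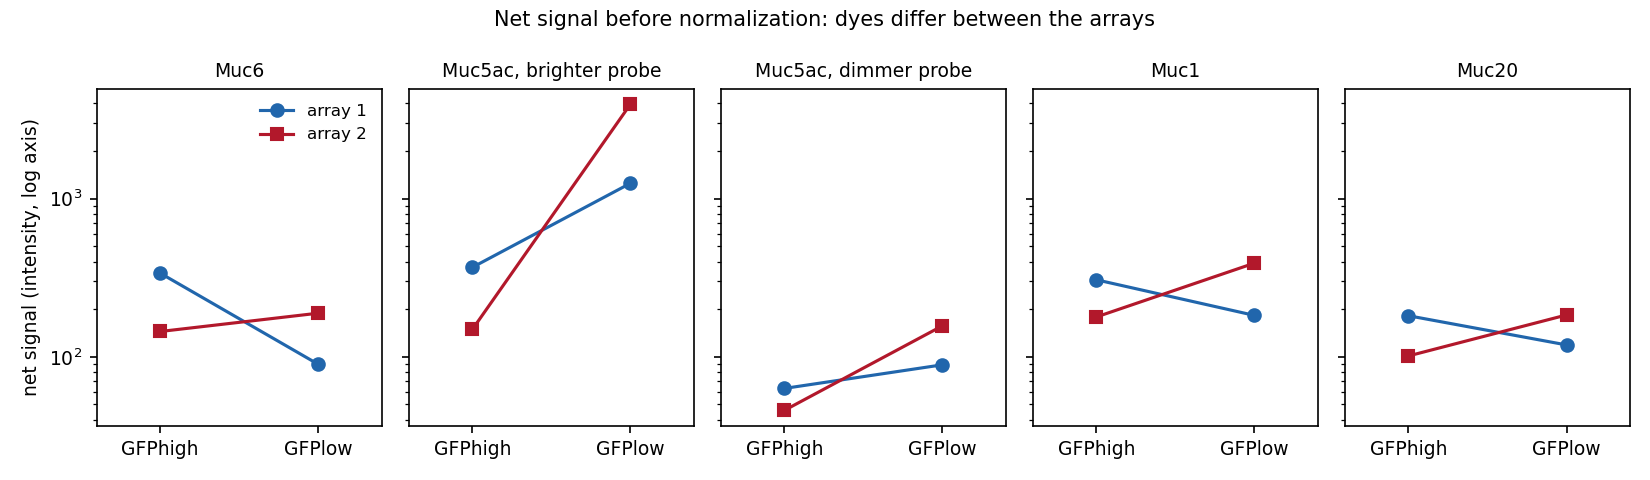
Net signal (spot minus local background, intensity on a log axis) in GFPhigh and GFPlow for the 5 mucin probes that were compared, with a line per array. The lines of both Muc5ac probes rise towards GFPlow on both arrays, whereas those of Muc6, Muc1 and Muc20 cross, with GFPhigh brighter on array 1 (338, 307 and 182) and dimmer on array 2 (145, 179 and 101), where it carried Cy5; signals of different probes are not comparable.

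The difference between the gel-forming mucins had a smaller SD between arrays than either ratio. Muc6 minus Muc5ac was 3.33 (array 1) and 3.46 (array 2), with a mean of 3.40 and an SD of 0.09. Over the alternatives it was less steady and ran from 2.53 with the mean of all Muc5ac probes to 4.59 with the processed signals, and with array-median centring it was 3.71.

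The membrane mucins that were compared differed little between the populations. Muc1, a mucin of the apical surface of many glandular epithelia, had net signals of 307 in GFPhigh and 183 in GFPlow on array 1 and of 179 and 391 on array 2. The ratios of 0.30 and 0.46 averaged 0.38 ± 0.11, or 1.30-fold. As for Muc6, the dye under which GFPhigh was measured decided which population was brighter before normalization.

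A further Muc1 probe was above background in GFPlow on both arrays and in GFPhigh on array 1 alone, and was not compared. Its 60 bases are spread over 158 positions of the genome at chr3:89035103-89035260. It gave 0.79 on array 1 and -0.10 on array 2, so its mean of 0.35 is smaller than its SD of 0.62.

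Muc20, a small membrane mucin, had net signals of 182 in GFPhigh and 119 in GFPlow on array 1, and of 101 and 184 on array 2. Its ratio was 0.18 and 0.35, a mean of 0.27 ± 0.12, or 1.20-fold. Its probe lies on the minus strand at chr16:32786143-32786202. Neither Muc1 nor Muc20 reached 2-fold on either array, and 95.5% of all genes compared were likewise higher in neither population by that rule. Their sign depended on the centring: with array-median centring Muc1 was at -0.099 and Muc20 at -0.017, and with spike-in centring at -0.41 and -0.52.

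**Figure D3:**
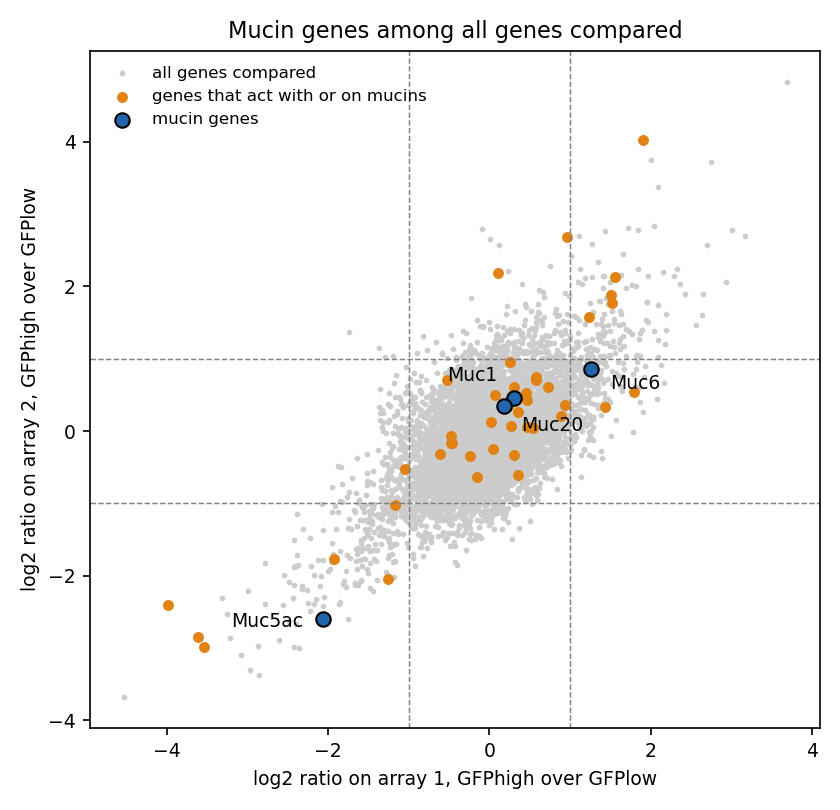
Log2 ratio of GFPhigh over GFPlow on array 1 (x axis) against array 2 (y axis) for the 7827 genes compared (grey), 43 genes that act with or on mucins (orange) and the 4 mucin genes compared (blue); dashed lines mark 2-fold. Muc5ac (-2.07, -2.60) lies in the lower left corner region past 2-fold on both arrays, Muc6 (1.26, 0.86) crosses the line on array 1, and Muc1 and Muc20 lie in the central cloud.

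Muc4, a large membrane mucin that binds the receptor Erbb2, was not compared, although it had the most probes of the family. None of its 6 probes was above background in GFPhigh on any array, and 2 were above background in GFPlow on 1 array. The net signals ran from 25.0 to 74.6 in GFPhigh and from 42.4 to 169.5 in GFPlow. Of the 6 probes 5 had a negative ratio on both arrays, from -0.63 to -0.20 in the mean, and the remaining one, which the files give as unmapped, was at 0.04. The 6 probes belong to 1 gene and 1 pair of RNA samples and are not independent. The brightest of them, at chr16:32779190-32780912 with its 60 bases spread over 1723 positions, was at -0.39 on array 1 and -0.33 on array 2. With array 2 alone it was bright enough to be compared, at -0.33, under the 2-fold threshold. In the processed signals of the scanner software it was at -1.76 (array 1) and -1.30 (array 2), past 2-fold on both. Another probe was at -1.92 and -1.04 there, and the rest did not pass on both arrays. The 5 probes stayed negative on both arrays, and the unmapped one was at -0.30 and 0.77. The size of a Muc4 difference thus depended on the processing and was not settled at these dim signals.

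Muc2, Muc5b and Muc13 were not well above background in either population on either array, which sets no level for them. The 3 probes of Muc2, the goblet cell mucin, had net signals from 30.7 to 60.7 in GFPhigh and from 33.9 to 75.2 in GFPlow. The single Muc5b probe lay between 81.3 and 82.4 in GFPhigh and between 74.7 and 109.8 in GFPlow. The single probe of Muc13, a membrane mucin of the intestine, lay between 37.4 and 60.6 in GFPhigh and between 48.1 and 53.3 in GFPlow. The populations overlapped at each of these genes. Whether these mucins differed was not detectable at these signals. Muc2 and Muc5b flank Muc5ac on chromosome 7, so the members of this cluster that gave a level alternate with those that did not.

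Genes that act with or on mucins were examined by role. Of 68 such genes, 66 had a probe and 43 were compared. Of these, 5 were higher in GFPhigh and 6 in GFPlow. Over all genes compared, the shares were 1.79% and 2.71%. The median ratio of the 43 was 0.29, against -0.06 over all genes compared, and 27 of the 43 were above 0, against 44.3% of all genes. The median was 0.33 with the processed signals and turned to -0.40 with array-median centring and -0.51 with spike-in centring, where the median of all genes was -0.49 and -0.82.

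Among secreted partners of mucins in the mucus layer, 5 of 7 compared were higher in GFPlow and 1 in GFPhigh. Tff1, the trefoil peptide secreted with Muc5ac, was at -3.98 (array 1) and -2.40 (array 2), with a mean of -3.19 ± 1.12. The gastrokines Gkn1 and Gkn2, products of surface mucous cells, were at -1.85 ± 0.12 and -3.23 ± 0.54, and Dmbt1, a mucosal scavenger glycoprotein, at -3.27 ± 0.39. Clca1, a goblet cell protease that acts on mucus, was at -1.09 ± 0.11. Gkn1 and Clca1 were not above background in GFPhigh on either array, so they are bounds, at least 3.07-fold and at least 2.13-fold higher in GFPlow. With array-median centring Clca1 did not pass on both arrays.

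The other 2 secreted genes compared had positive ratios. Tff2, the trefoil peptide secreted with Muc6, was at 0.97 (array 1) and 2.69 (array 2), with a mean of 1.83 ± 1.22, and missed 2-fold on array 1. The gastrokine Gkn3 was at 1.91 and 4.03, a mean of 2.97, and passed on both. With the processed signals Tff2 passed on both arrays as well. Tff3, the goblet cell trefoil peptide, and the mucus proteins Fcgbp and Zg16 were not above background. The secreted group had a median of -1.85, which was negative under every scaling tried, from -2.70 with the processed signals to -1.83 with array-median centring. Spike-in centring lowers every ratio, so its negative median adds little.

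The group for folding and packing in the secretory pathway holds regulators, such as transcription factors, as well as folding enzymes. It had positive ratios in 8 of 8 compared, with a median of 0.87, but only 1 passed 2-fold on both arrays. That gene was Creb3l4, a membrane-bound transcription factor of secretory cells, at 1.84 ± 0.41. Xbp1, a regulator of the unfolded protein response, was at 1.16 ± 0.88, Agr2, a disulphide isomerase needed for mucin folding, at 1.15 ± 1.47, and Bhlha15, a transcription factor of secretory cells, at 1.07 ± 0.30. Agr2 was at 0.11 on array 1 and 2.18 on array 2, so its mean rests on array 2. Bhlha15 is also a listed chief cell marker. With array-median centring 5 of the 8 were above 0 and with spike-in centring 4 of 8, and in both cases 0 passed 2-fold. With the processed signals 8 of 8 were above 0 and 3 (Agr2, Bhlha15 and Creb3l4) passed.

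Among transcription factors of mucous cells, Spdef, which drives mucous differentiation, was higher in GFPhigh at 1.65 ± 0.17, and Klf4, a factor of differentiated surface epithelium, was higher in GFPlow at -1.66 ± 0.56. The other 4 compared did not pass, among them Foxa3 at 0.55 ± 0.47, Foxq1, which is known to be needed for Muc5ac expression in the mouse stomach, at -0.32 ± 0.21, and Foxa2 at 0.29 ± 0.36. Atoh1, Cdx2, Pdx1, Sox2, Gata4, Hnf4a and Foxa1 were not compared, being too dim. With array-median centring neither Spdef nor Klf4 passed on both arrays, and with spike-in centring Klf4 did.

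**Figure D4:**
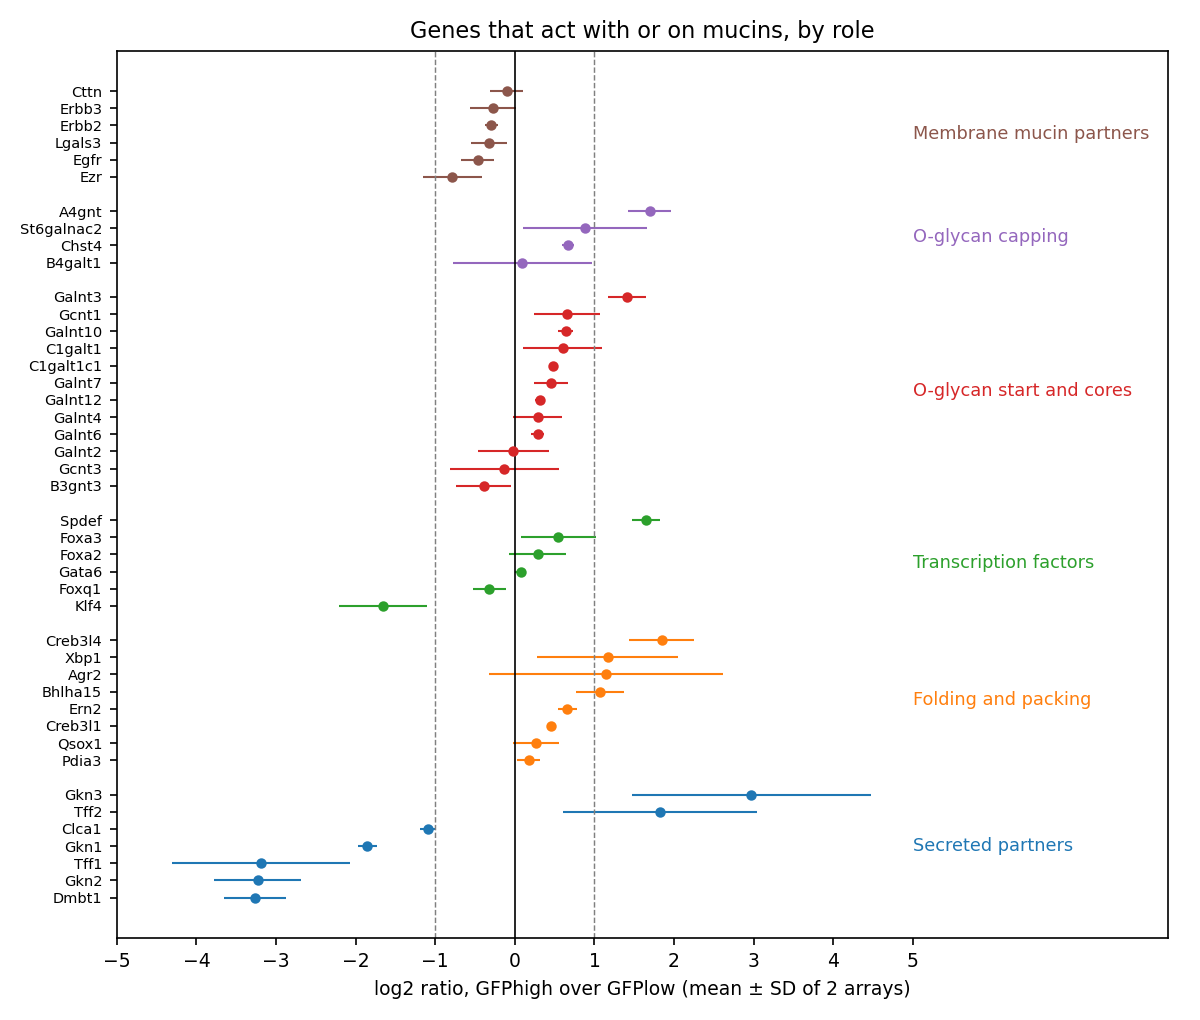
Log2 ratio of GFPhigh over GFPlow (x axis, mean of 2 arrays, bars SD) for the 43 compared genes that act with or on mucins, grouped and coloured by role, with dashed lines at 2-fold. Secreted partners spread to both sides from -3.27 (Dmbt1) to 2.97 (Gkn3), and all 6 membrane mucin partners have means below 0. All 8 genes of the folding group, regulators included, lie above 0 under the normalization shown but 5 with array-median and 4 with spike-in centring.

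Enzymes that start and extend O-linked sugars had a median of 0.38 over 12 compared genes, of which 1 passed. Galnt3, which attaches the first sugar to serine or threonine, was higher in GFPhigh at 1.41 ± 0.24. Gcnt1, a core branching enzyme, was at 0.65 ± 0.41, Galnt10 at 0.64 ± 0.09 and C1galt1, the core synthase, at 0.60 ± 0.49. The median of this group turned to -0.28 with array-median centring and -0.48 with spike-in centring, and Galnt3 passed in neither. With the processed signals the median was 0.43, and Galnt3 and Gcnt1 passed.

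Of 13 genes for enzymes that cap these sugars, 4 were compared and 1 passed. A4gnt, which adds the terminal N-acetylglucosamine carried by Muc6 in gland mucous cells, was at 1.69 ± 0.27, or 3.23-fold higher in GFPhigh. St6galnac2 was at 0.88 ± 0.78, the sulphotransferase gene Chst4 at 0.67 ± 0.08 and B4galt1 at 0.10 ± 0.87. A4gnt no longer passed on both arrays with array-median or spike-in centring. The fucosyltransferase genes Fut1, Fut2 and Fut4 were not compared, being too dim.

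Partners of membrane mucins had negative mean ratios in 6 of 6 compared, with a median of -0.31, and 0 passed 2-fold. Over all genes compared, 44.3% had a mean ratio above 0. Ezr, the actin linker of the apical membrane, was at -0.79 ± 0.37, the receptor gene Egfr at -0.47 ± 0.21, the galectin gene Lgals3 at -0.32 ± 0.22 and the Muc4 partner Erbb2 at -0.29 ± 0.08. The smallest was Cttn, at 0.04 on array 1 and -0.25 on array 2. GFPhigh was above background on 1 array for Egfr and Cttn and on neither for Lgals3. These genes were thus compared through GFPlow, the population where their mean was higher. All 6 stayed below 0 under every scaling tried. However, spike-in centring lowered every ratio by 0.79, and array-median centring moved the median of all genes to -0.49. These 2 scalings therefore say little on whether the sign holds. With spike-in centring 3 of the 6 (Egfr, Erbb2 and Ezr) passed, where 1656 of all 8196 genes compared were higher in GFPlow.

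Marker lists of the cells that make these mucins overlap with the genes above: all 5 pit cell markers and 4 of the 6 gland mucous cell markers, all but Pgc and Aqp5, have been described already, so these counts largely restate the same values. Over all genes compared, 2.71% were higher in GFPlow and 1.79% in GFPhigh. Of 5 pit cell markers, Muc5ac included, 5 were higher in GFPlow, with a median of -3.19, and the same 5 passed under every scaling tried. Spike-in centring, which lowers every ratio, could not undo these calls. Of 6 markers of gland mucous cells, Muc6 included, 4 were higher in GFPhigh (Gkn3, A4gnt, Pgc at 3.23 ± 0.69 and Aqp5 at 2.73 ± 0.91) and 0 in GFPlow, with a median of 2.28. All 6 gland markers stayed above 0 under every scaling, and 3 (Aqp5, Gkn3 and Pgc) passed under array-median and under spike-in centring. With the processed signals all 6 passed. Of 7 goblet cell markers 2 were compared, and both, Clca1 and Spink4 (-1.40 ± 0.39), were higher in GFPlow, while Muc2 and Atoh1 were too dim.

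Markers of further cell types moved with these mucins. Of the enteroendocrine markers 4 of 5 compared, and of the cycling cell markers 3 of 4, were higher in GFPlow together with Muc5ac (Chga, Chgb, Ghrl and Sst, and Birc5, Ccnb1 and Mki67). GFPhigh was above background on 1 array for Ccnb1 and on neither for Top2a, the cycling marker that did not pass. Ccnb1 and Top2a were thus compared through GFPlow, the population where their mean was higher. Of the chief cell markers 3 of 5 compared were higher in GFPhigh (Cblif, Pga5 and Pgc) and 1 in GFPlow (Chia1). Pgc is already counted among the gland mucous cell markers, so these lists are not independent. Of the parietal cell markers 2 of 4 were higher in GFPhigh: Kcnq1, and Cblif, which is already counted among the chief cell markers. The parietal markers Atp4a (0.33 ± 0.86) and Atp4b (0.76 ± 0.56) did not pass. The single tuft cell marker compared, Avil, was higher in GFPlow, as a bound of at least 2.13-fold, since GFPhigh was above background on neither array. Of 3 squamous markers compared 0 passed. With array-median centring Pga5, Kcnq1 and Avil no longer passed, and with spike-in centring Kcnq1 did not. With the processed signals 2 squamous markers (Lor and Sbsn) were higher in GFPhigh. Their part in the mucin ratios was not tested. Markers of immune cells were above background in 0 of 5 cases, those of fibroblasts in 1 of 5, of endothelium in 1 of 4 and of smooth muscle in 1 of 3, and none of these passed 2-fold in the reported processing. With spike-in centring the endothelial marker Egfl7 and the smooth muscle marker Acta2 were higher in GFPlow, as were 1656 of 8196 genes compared there. That centring lowered every ratio by 0.79. In the reported processing Egfl7 was at -0.62 ± 0.39, with GFPhigh above background on 1 array, and Acta2 at -0.55 ± 0.16.

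Mucin and mucin-like genes beyond the 8 were mostly too dim. Of 32 listed, 23 had a probe and 3 were compared. Pigr, the epithelial receptor that carries IgA into mucus, was higher in GFPhigh at 2.01 ± 0.77, or 4.03-fold. The sialomucin gene Cd164 was at 0.57 ± 0.13 and the epithelial adhesion gene Epcam at 0.12 ± 0.51. Muc3, Muc15, Muc16 and Muc19 were not compared, being too dim.

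The genes whose pair of array ratios lay closest to that of Muc5ac, by Euclidean distance among 5835 genes above background throughout, were 2210407C18Rik (-2.24), Fabp2, a fatty acid binding protein gene (-2.36), and Cyp2d26, a cytochrome P450 gene (-2.24). Closest to Muc6 were D630039A03Rik, Bhlha15 and Cul7, a ubiquitin ligase scaffold gene, with means from 1.04 to 1.07. With only 2 arrays this likeness is a description of size.

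The whole data set set the frame for these values. Lgr5 was at 2.33 (array 1) and 2.24 (array 2), with a mean of 2.28 ± 0.07, so the gene whose locus drives GFP was higher in GFPhigh. Gene spots well above background made up 28.6% (array 1) and 18.7% (array 2) in GFPhigh, and 25.1% and 31.7% in GFPlow. In each population the share was higher on the array where it carried Cy3. Across the 9496 probes compared, which are not independent, Pearson's r between the arrays was 0.596. The number of arrays limits the precision.

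**Figure D5:**
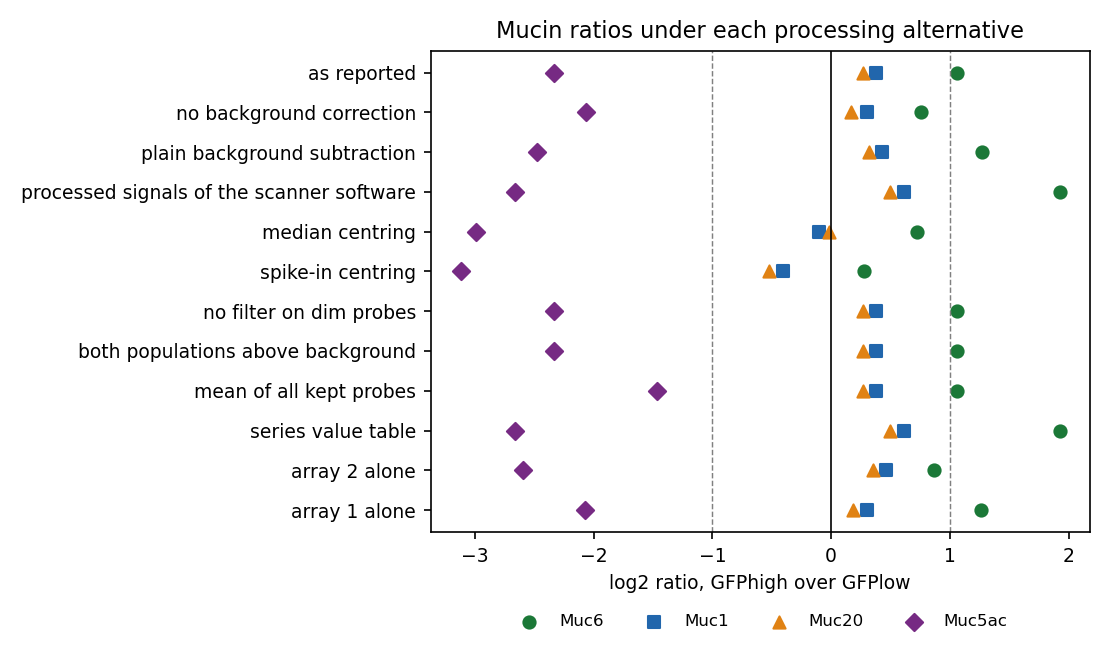
Log2 ratio of GFPhigh over GFPlow (x axis) of the 4 mucin genes compared, under the reported processing and 11 alternatives (rows), with dashed lines at 2-fold. Muc5ac lies between -3.12 and -1.47 and Muc6 between 0.27 and 1.93 in all rows, while Muc1 and Muc20 lie below 0 in the rows of median and spike-in centring.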

How the data were processed

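The authors deposited the scanner output of 2 two-colour arrays. Per the file headers, they hold for each spot and dye the mean intensity and the median local background intensity, from Feature Extraction 10.5.1.1 (9.5.3 per the submitters' processing notes). Per the file headers the processed intensities are background-subtracted and dye-normalized, and the deposited log10 ratio is processed Cy5 over Cy3. The deposited value table held the same log10 ratios, all in the direction GFPhigh over GFPlow, to within 0.005, at 22460 (array 1) and 20777 (array 2) of 45018 spots. The other spots were empty there and had a scanner ratio of 0. Per the labels, 150 ng of RNA was labelled after linear amplification.

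Background correction of the mean signals (normexp, offset 50) and loess on each array used limma 3.58.1 and R 4.3.3. Control spots and spots marked as non-uniform or outliers had weight 0 in the loess. Offset and normexp pull dim ratios towards 0. Marked spots were then left out, and 0 gene spots were saturated. A gene was represented by its brightest compared probe. Symbols were updated through a RefSeq table of GRCm38.p6, and 8078 of 41174 probes kept the name in the file. The steps were tested on simulated arrays. Changes were simulated at brighter probes only, so this says nothing on the ratios of the dim mucin probes.

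Members and gene lists were chosen with earlier results of these data known. Named were all members, listed genes past 2-fold on both arrays with up to 3 others per role (more for partners of membrane mucins), and the 3 nearest genes of Muc5ac and Muc6. Alternatives covered background, signals, centring, filter, probe rule, threshold, the use of each array alone and the value table. Spike-in centring took 10 probes of added control RNA as the zero, which lowered every ratio by 0.79. With 1 RNA sample per population, no biological error was estimated.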

Additional observations from a re-analysis of the deposited data

How the results depend on the processing

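Muc5ac was higher in GFPlow by the 2-fold rule in every alternative, and Muc6 kept a positive mean in every alternative. Several alternatives could not change this. Both filter settings and the 1.5-fold threshold left the ratios of Muc5ac and Muc6 as reported. The value table repeats the processed signals, and the mean of all probes cannot move Muc6, which has 1 probe. Spike-in centring lowers every ratio, so it could not undo a call in GFPlow. Muc6 passed 2-fold on both arrays (1 mucin higher in GFPhigh in place of 0) with plain background subtraction, the processed signals and the value table. Its reported ratios also passed where the threshold was lowered to 1.5-fold. Without background correction Muc6 was at 0.75, Muc6 minus Muc5ac at 2.82 and the median of genes acting with or on mucins at 0.26. With plain subtraction the difference was 3.75. With the processed signals the counts of all genes were 352 higher in GFPhigh and 512 in GFPlow, and 352 and 508 with the deposited value table. In both, 9 genes of the mucin-related list were higher in GFPhigh, the list median was 0.33, Muc1 was at 0.62, Muc6 at 1.93, Muc20 at 0.50 and Muc6 minus Muc5ac at 4.59. With array-median centring 10 genes were higher in GFPhigh, 1 of them in the list, whose median was -0.40, and Muc1 was at -0.099, Muc20 at -0.017, Muc5ac at -2.99, Muc6 at 0.72 and the difference at 3.71. With spike-in centring 21 and 1656 genes were higher in GFPhigh and GFPlow, 1 list gene was higher in GFPhigh, the list median was -0.51, and Muc1 was at -0.41, Muc20 at -0.52, Muc5ac at -3.12 and Muc6 at 0.27. The list median was 0.054 with no filter on dim probes and 0.38 with both populations above background, where 140 genes were higher in GFPlow. The mean of all probes gave -1.47 for Muc5ac and 2.53 for the difference. The 1.5-fold threshold gave 438 and 583 genes. On each array alone 351 to 370 genes were higher in GFPhigh and 394 to 498 in GFPlow, and 0 to 1 mucins and 7 to 8 list genes were higher in GFPhigh. The list median on each array alone ran from 0.067 to 0.27. The causes were not tested. No paired analysis was possible because both arrays hold the same pair of RNA samples. Signal over background limits the dim mucins Muc2, Muc4, Muc5b and Muc13.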
